A study of Mus musculus with 4 samples.

Results

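The array labelled NSCL61-Ceacam1sh was compared with the array labelled NSC to ask whether a glioma-initiating line carrying a hairpin against Ceacam1 had the expression state of the neural stem cells or a different one. The comparison used 2 of the 4 single-colour arrays of the series, 1 array for each group. Of 22375 named genes, the comparison covers the 15385 whose probe stood clear of background on either of those arrays. NSC were p53-/- neural stem cells from the brain of the E14.5 mouse embryo. NSCL61 is a cell line with the same p53-/- genotype, tissue and age in its labels, and NSCL61-Ceacam1sh is that line expressing the Ceacam1 short hairpin RNA. NSC-Ceacam1L, stem cells expressing Ceacam1L, and NSCL61 itself are given beside them for reference. The cells of all 4 arrays lacked p53 and were grown in serum-free stem cell medium, and per the labels' protocols vectors were transfected and cells were kept in hygromycin for 1 week. The labels do not say whether NSC and NSCL61 carried an empty vector, how many clones or cultures each array stands for, or which hairpin sequence was used.

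Neural stem cells of the embryonic brain are radial glia-like cells that renew themselves and give rise to neurons, astrocytes and oligodendrocytes, and they are recognised by factors such as Sox2 and Nestin and by glial genes such as Fabp7 and Slc1a3. Notch signalling through Hes5 keeps them undifferentiated, and Olig1 and Olig2 mark progenitors that can make oligodendrocytes. NSCL61 is known as a tumour-forming line made from p53-null neural stem cells with activated H-Ras, and Ceacam1 is a cell adhesion molecule of the immunoglobulin family.

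Levels are log2 signals relative to the array's own 75th percentile, so 0 is that percentile, and they are compared only between arrays for the same probe. A gene counts as higher or lower once its log2 difference reaches 1, which is 2-fold and its signal on the brighter array is well above background. With 1 array a group there was no replicate check and no test, and the ± values are the scanner software's modelled error of the difference, which holds no variation between cultures. For a gene well above background on only 1 of the 2 arrays, the fold is an lower bound, printed as at least that fold, against the lowest signal that passed background on the dim array, or against the gene's own value there if higher. In bulk RNA, fewer cells of a type and less RNA per cell cannot be told apart.

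Several measurements bear on the label of the hairpin array before any result is drawn from it. No probe on the array design was named Ceacam1, so the knockdown could not be checked. Of 20 probes for the Ceacam family, 1, named Ceacam2, lists a Ceacam1 accession. It stood at -4.94 on NSC, -5.01 on NSC-Ceacam1L, -5.0 on NSCL61 and -4.34 on the hairpin array, a difference from NSC of 0.61 ± 0.65. Its signal passed background on the hairpin array alone, and the array labelled for Ceacam1L was not above the others. The X-inactivation RNA Xist was 1.85, 1.26, 0.42 and -4.05 on NSC, NSC-Ceacam1L, NSCL61 and NSCL61-Ceacam1sh. The hairpin array thus had the lowest Xist, -5.90 ± 0.30 from NSC, and no Y-linked gene of the 6 with a probe was well above background on any array. All 4 arrays lay on 1 slide and had 1 scan time, and their 75th percentiles of signal ran from 439 to 571. Of the 20 housekeeping genes, Actb stood at 9.28 on NSC and 9.27 on NSCL61-Ceacam1sh, and Gapdh at 9.1 and 9.05. The list's median difference was 0.13, which turned to -0.030 with cyclic loess normalization. Tfrc (1.38), B2m (1.58) and Hprt (1.93) were the 3 higher genes, 15% of the list against 21.6% of all genes seen.

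The promoter sequences that go with the 2 gene groups this comparison turns on are shown first. The first 4 genes are a matrix protease group that was high only on the hairpin array, and the last 2 are mitotic genes whose level on the hairpin array was that of NSC. They were chosen after their values had been seen. Each sequence is the stretch just upstream of the annotated start in RefSeq's GRCm38.p6, read 5′ to 3′ on the gene's strand. Capitals mark TGANTCA, the AP-1 motif, which reads the same on both strands, in the first 4, and CCAAT or its reverse complement ATTGG in the last 2.
Mmp3: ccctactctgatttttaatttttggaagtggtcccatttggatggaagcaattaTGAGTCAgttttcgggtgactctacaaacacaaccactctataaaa
Mmp10: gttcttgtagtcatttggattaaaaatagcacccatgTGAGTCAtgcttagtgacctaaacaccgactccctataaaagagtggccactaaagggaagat
Mmp13: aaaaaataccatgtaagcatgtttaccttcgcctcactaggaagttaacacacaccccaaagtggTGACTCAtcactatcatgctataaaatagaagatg
Plaur: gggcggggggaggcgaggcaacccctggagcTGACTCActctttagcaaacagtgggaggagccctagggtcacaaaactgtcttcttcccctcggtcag
Ccnb2: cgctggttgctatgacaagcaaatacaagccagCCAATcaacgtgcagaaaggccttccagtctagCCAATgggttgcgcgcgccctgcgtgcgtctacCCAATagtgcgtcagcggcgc
Cdk1: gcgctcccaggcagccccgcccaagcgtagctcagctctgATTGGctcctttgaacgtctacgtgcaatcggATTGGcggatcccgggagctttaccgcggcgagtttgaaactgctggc
The stretches are chr9:7445722-7445821 for Mmp3, chr9:7502242-7502341 for Mmp10, chr9:7272414-7272513 for Mmp13 and chr7:24462383-24462482 for Plaur, all on the + strand. Those of Ccnb2, chr9:70421555-70421674, and Cdk1, chr10:69352913-69353032, are on the - strand. The AP-1 letters begin 46, 63, 35 and 69 bases before the start of Mmp3, Mmp10, Mmp13 and Plaur. Ccnb2 has 3 CCAAT matches, beginning 87, 54 and 21 bases before the start, and Cdk1 has 2, at 80 and 48 bases. TGANTCA occurred in the 100 bases upstream of 2.73% of all 32851 promoter entries, and in those of 6 of the 17 matrix protease list genes with an entry. CCAAT or ATTGG occurred in the 120 bases upstream of 21.3% of all entries and in those of 20 of the 25 G2/M list genes with an entry. For both motifs the overall share is counted per entry, whereas a list gene counts if any of its entries matched. The 2 are therefore not on the same footing. A match is a run of letters, not evidence that a factor was bound.

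The hairpin array was no nearer to the stem cells than its parent line was. Between NSCL61-Ceacam1sh and NSC, 3330 genes were higher (21.6% of those seen) and 3360 were lower (21.8%), so 43.5% differed by 2-fold or more. The counts of list members given below are to be read beside these shares. Between NSCL61 and NSC the same counts were 2203 (14.4%) and 2144 (14.0%), or 28.4% in all. Between NSC-Ceacam1L and NSC they were 1604 (10.5%) and 927 (6.04%), and these comparisons share the NSC array. Against its parent line NSCL61, the hairpin array had 3669 higher (23.5%) and 3789 lower genes (24.2%). The even split of higher and lower calls depends on the scaling. With each array scaled to its median instead, the median of all genes moved from 0.08 to 0.45, and 4736 genes were higher and 2690 lower, which moved the share of calls that were higher from 49.8% to 63.8%. Of the genes well above background on both arrays, 613 differed by at least 10-fold and 56 by at least 100-fold. The corresponding numbers for NSCL61 and NSC were 201 and 13.

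Over the 12495 genes that passed background on each of the 4 arrays, the SD of the log2 differences was 1.49 between NSCL61-Ceacam1sh and NSC, 1.00 between NSCL61 and NSC and 0.62 between NSC-Ceacam1L and NSC. Between the hairpin array and its parent line NSCL61 it was 1.57, and each pair that included the hairpin array spread wider than any pair without it. On the 3 arrays NSC, NSCL61 and NSCL61-Ceacam1sh, a gene was assigned to the array that differed from both others by 2-fold or more in 1 direction while those others lay within 2-fold of each other. This count treats the arrays alike. The hairpin array stood apart for 3374 of 16112 genes, 1742 higher (10.8%) and 1632 lower (10.1%). NSCL61 stood apart for 1399 (8.68%), 777 higher (4.82%) and 622 lower (3.86%), and for these the hairpin level lay within 2-fold of NSC. Genes near the NSC level on both NSCL61 and the hairpin array are not in this count. NSC stood apart for 1031 (6.4%), 600 higher (3.72%) and 431 lower (2.68%), and for these the hairpin level lay within 2-fold of NSCL61. The order of these counts was the same under all 10 alternative settings tried.

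**Figure D1:**
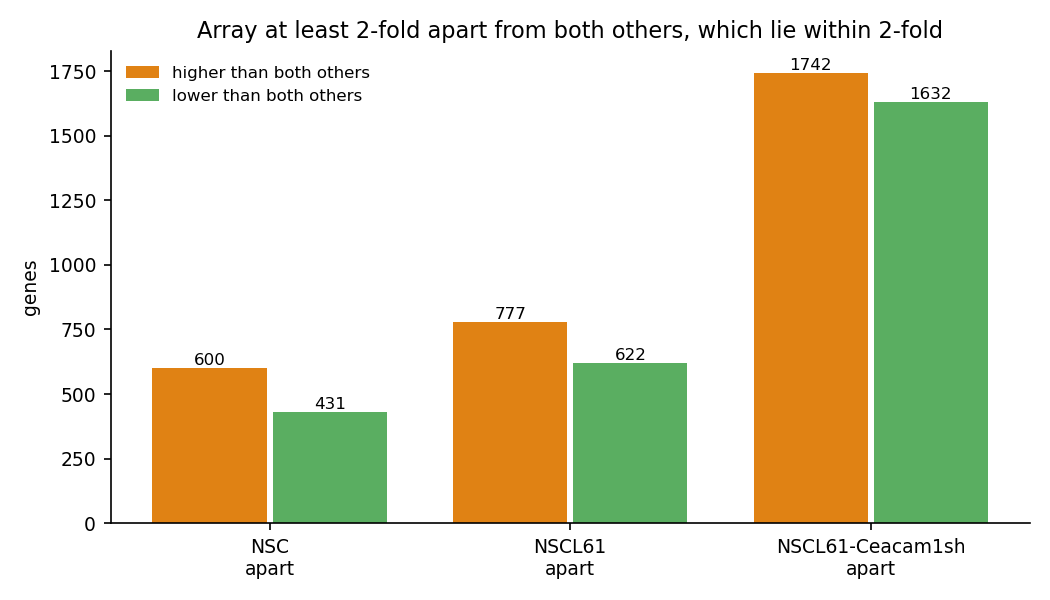
Bars give the number of genes (y axis, from 0) for which 1 of the arrays NSC, NSCL61 and NSCL61-Ceacam1sh was at least 2-fold higher (orange) or lower (green) than both others, which lay within 2-fold of each other. NSCL61-Ceacam1sh stood apart for 1742 and 1632 genes, NSCL61 for 777 and 622 and NSC for 600 and 431.

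Genes of radial glia and of the glial lineages were among those farthest below NSC. Fabp7, the brain lipid-binding protein of radial glia (its probe at chr10:57508039-57508098 in mm9), was 8.90 on NSC, 8.39 on NSC-Ceacam1L, 8.36 on NSCL61 and -4.00 on the hairpin array. It was high on the first 3 arrays and low, though still above background, on the hairpin array, a difference from NSC of -12.90 ± 0.31. Slc1a3, the glial glutamate transporter, was 5.56, 5.50, 4.73 and -3.70 in the same order of arrays, and Hes5, the Notch effector, was 7.18, 6.63, 6.01 and -6.06. Both were thus high on every array but the hairpin array, where they were lower by 9.27 ± 0.26 for Slc1a3 and by at least 3895-fold for Hes5 against NSC. All 30 neural stem and radial glial genes were seen, and their median was -1.89 against 0.08 over all genes, with 17 lower and 3 higher. The same list had 7 lower and 3 higher members between NSCL61 and NSC, with a median of -0.35. Other lower members were Ptprz1, a receptor phosphatase (at least 1972-fold), Sox3 (-7.13 ± 0.21), Sox1 (-5.72 ± 0.28), Lhx2 (-4.82 ± 0.21), Egfr (-4.34 ± 0.20), and the transcription factors Nr2e1 (at least 127-fold) and Nfia (at least 36.0-fold).

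Several core neural stem cell genes differed from NSC by little more than 2-fold or less. Sox2, one of the lower members, was 3.55 on NSC, 3.83 on NSC-Ceacam1L, 4.12 on NSCL61 and 2.36 on the hairpin array, lower by 1.19 ± 0.20 and still well above background. Nes, the intermediate filament Nestin, was 5.68, 4.79, 6.13 and 4.95, a difference of -0.73 ± 0.20 that is under 2-fold. Vim (7.22 and 8.13 on NSC and NSCL61-Ceacam1sh), Pax6 (-0.86 and -1.35), Msi1 (-0.42 and -0.35), Nfib (5.82 and 5.39), Cdh2 (5.46 and 5.13), Id3, Notch1, Hes1 and Tnc also lay within 2-fold. These genes and the glial genes of the previous paragraph come from 1 list, so its median covers both members near the NSC level and members far below it. The members higher on the hairpin array were Fut4 (3.38 ± 0.27), Id1 (1.77 ± 0.20) and Id4 (1.66 ± 0.20).

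**Figure D2:**
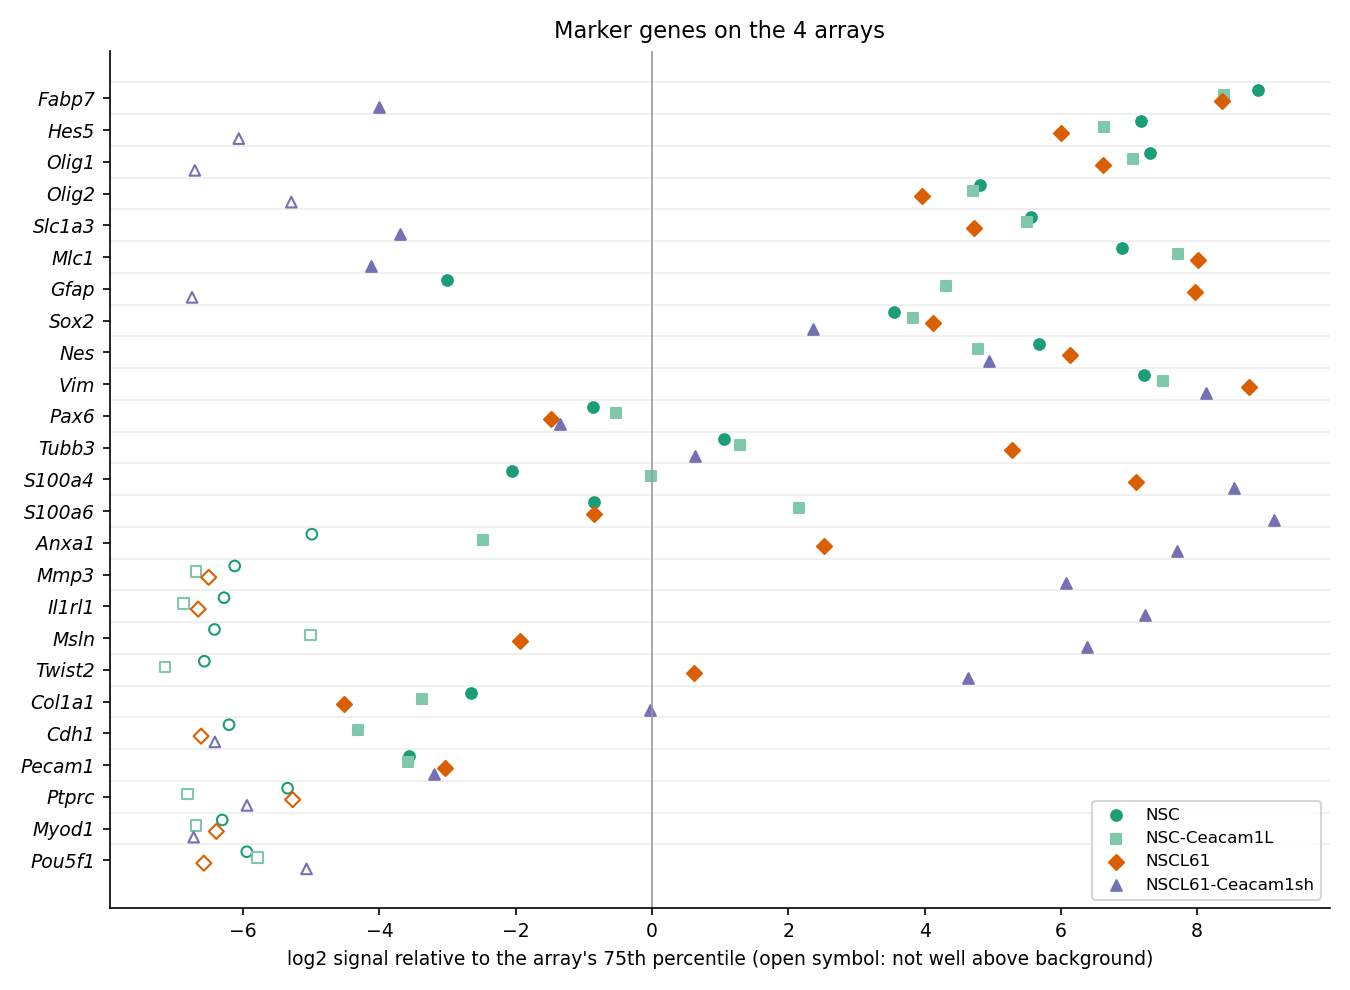
Each row is a marker gene and each symbol 1 array, placed at its log2 signal relative to the array's 75th percentile (x axis), filled where well above background and open where not. Fabp7 is at 8.90 on NSC and -4.00 on NSCL61-Ceacam1sh, while Sox2 is at 3.55 and 2.36 and Mmp3 moves from -6.12, below background, to 6.08.

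Regional factors of the forebrain were mixed. Of the 31 regional transcription factors of the embryonic brain, 23 were seen, and 13 of them were lower and 3 higher. Their median was -1.41, or -1.0 when genes with an at-least fold enter at that bound. Here and in later medians with bounds, a gene seen on a single array without such a bound entered as no difference. Zic1 (4.70 on NSC and 3.93 on NSCL61-Ceacam1sh), Zic2, Zic5, Emx2, Otx1 and Nkx6-1 lay within 2-fold of NSC. Pou3f2 was lower by 5.01 ± 0.31, Gsx1 by 4.11 ± 0.33, Six3 at least 32.6-fold and Gsx2 at least 8.29-fold. Gsx2 was not well above background on NSCL61 either, at -6.82, against -1.70 on NSC.

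Notch signalling genes other than Hes5 were also lower. Of 22 listed, 18 were seen, 12 of them lower and 3 higher, and their median was -2.93, against 0.33 for NSCL61 minus NSC. The ligand Dll1 was 2.52 on NSC, 2.47 on NSC-Ceacam1L, 2.93 on NSCL61 and -3.47 on the hairpin array, and the receptor Notch3 was 3.58, 4.33, 3.83 and -2.85. For 13 of the list's genes the hairpin array stood apart from both NSC and NSCL61, which differed by less than 2-fold. It stood apart for 20.9% of all genes. The target Hey1 (-4.61 ± 0.21) and the modulators Lfng (-5.24 ± 0.22) and Mfng (at least 94.2-fold) followed the same direction. The receptor Notch2 (1.99 ± 0.20), the ligand Jag1 (1.77 ± 0.21) and the nuclear effector Rbpj (1.47 ± 0.20) were higher.

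The astrocyte genes that were high in the tumour line were low on the hairpin array. Gfap, the astrocyte filament (its probe at chr11:102751813-102751872 in mm9), was -3.01 on NSC, 4.32 on NSC-Ceacam1L, 7.97 on NSCL61 and -6.75 on the hairpin array, where it was not well above background. It was therefore at least 3.34-fold below NSC, which had the least Gfap of the remaining arrays. Mlc1, a membrane protein of astrocytes, was 6.90, 7.72, 8.02 and -4.12, and Apoe, the lipid carrier, was 6.46, 8.85, 8.38 and -0.66. Of 29 astrocyte markers seen, 23 lay below NSC and 3 above it, and the median was -4.44. Between NSCL61 and NSC, 15 were higher and 2 lower, with a median of 1.12, so the 2 comparisons lay on opposite sides of 0. Gja1 (2.27 ± 0.21), Clu (1.91 ± 0.20) and Id4 were the higher ones, and Cpe (-0.05 ± 0.20), Gpc5 and Acsl6 lay within 2-fold.

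Most oligodendrocyte precursor genes were lower. Olig1 was 7.31 on NSC, 7.06 on NSC-Ceacam1L, 6.61 on NSCL61 and -6.71 on the hairpin array, at least 4276-fold lower than on NSC. Olig2 was 4.81, 4.72, 3.96 and -5.29, at least 756-fold lower, and Bcan, the brain proteoglycan brevican, was at least 6276-fold lower. None of the 3 was well above background on the hairpin array. Of 25 such markers seen, 21 were lower and 1, S100a1 (1.21 ± 0.21), was higher, with a median of -4.93. In the same direction were Gpr17, a receptor of oligodendrocyte precursors (at least 1042-fold), Sox10 (-3.70 ± 0.22) and Sox8 (at least 206-fold). Pdgfra, the growth factor receptor of these precursors, was 1.52 on NSC and 1.03 on NSCL61-Ceacam1sh, within 2-fold. Mag and Mog also lay within 2-fold, and Matn4 (-1.17 ± 0.29) turned to 0.52 when all its probes were averaged.

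Brain matrix and neural adhesion genes had a median of -5.08 over 24 genes seen, or -4.15 with bounds, and of -3.03 with normexp background correction. Of these genes 18 were lower and 1, Cadm1 (2.79 ± 0.20), was higher. Ncan, neurocan, was lower at least 723-fold, Cdh4, R-cadherin, at least 576-fold, Gpm6a at least 488-fold and Cntn1, contactin, at least 207-fold. Gpm6b was lower by 2.29 ± 0.20 on the probe used and higher by 0.49 when all its probes were averaged. Neuron genes were lower as well, 14 of 24 seen with 4 higher and a median of -1.51. Stmn3 was at least 471-fold lower, Mapt (-5.83 ± 0.22) and Map2 (-5.01 ± 0.21), both microtubule proteins, were lower, and Gap43 (0.02 ± 0.20) and L1cam (-0.06 ± 0.28) were not.

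**Figure D3:**
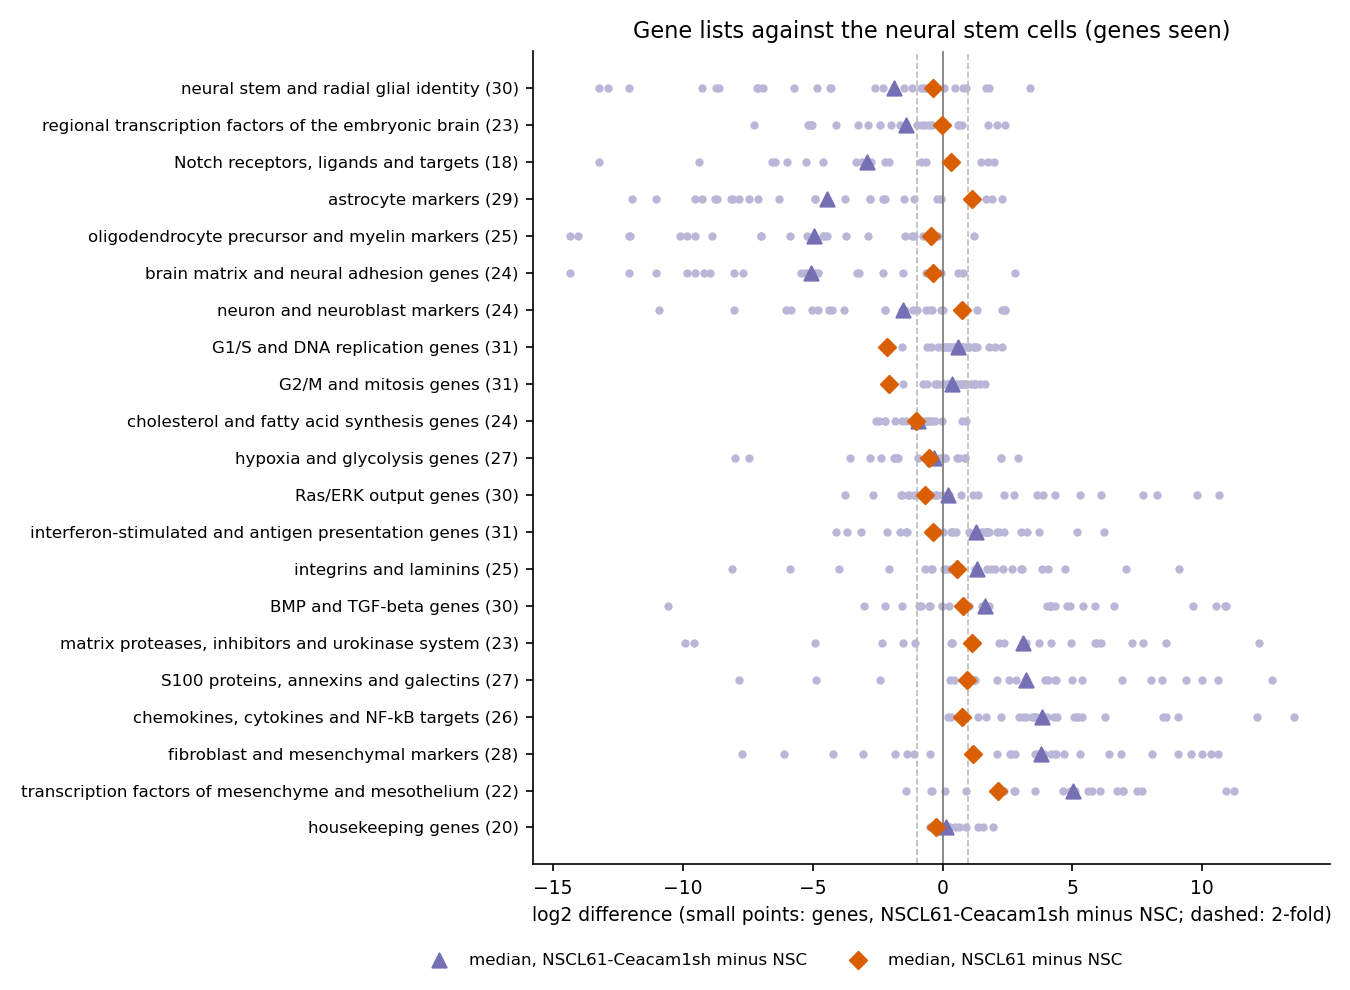
Each row is a gene list with the number of its genes seen, small points are genes at their log2 difference NSCL61-Ceacam1sh minus NSC (x axis), triangles are the list medians of that comparison and diamonds those of NSCL61 minus NSC. The triangles run from -5.08 for brain matrix genes to 5.01 for mesenchymal factors, and the proliferation lists are the ones with diamonds near -2 and triangles above 0.

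Proliferation genes were the clearest group with the NSC level. Mki67, the proliferation antigen, was 5.24 on NSC, 4.26 on NSC-Ceacam1L, 3.08 on NSCL61 and 5.26 on the hairpin array. Ccnb2, a mitotic cyclin (its probe at chr9:70255671-70255730 in mm9), was 4.85, 3.95, 0.81 and 4.87, and Cdk1, its kinase, was 3.28, 2.08, 1.70 and 3.54. All 3 were lowest on NSCL61 and differed between the hairpin array and NSC by 0.03 ± 0.20, 0.02 ± 0.20 and 0.27 ± 0.20. Of 31 G2/M genes, all 31 were lower on NSCL61 than on NSC, with a median of -2.07. Against NSC the hairpin array had 6 of them higher (19.4%, against 21.6% of all genes seen), 1 lower and a median of 0.36. Of the 31 G1/S and replication genes seen, 28 were lower on NSCL61, with a median of -2.13. On the hairpin array 8 were higher (25.8%), 1 was lower and the median was 0.58. NSCL61 stood apart from the other 2 arrays for 22 of the G2/M and 20 of the G1/S genes, against 8.68% of all genes. The members beyond the NSC level included Birc5, survivin (1.65 ± 0.20), Cdt1, a replication licensing factor (2.30 ± 0.20), Tk1, thymidine kinase (2.03 ± 0.20), and E2f1 (1.79 ± 0.20). Cenpf (-1.52 ± 0.24) was the lower one of the G2/M list. With each array scaled to its median, 14 G1/S and 13 G2/M genes were higher than on NSC, with medians of 0.96 and 0.73.

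**Figure D4:**
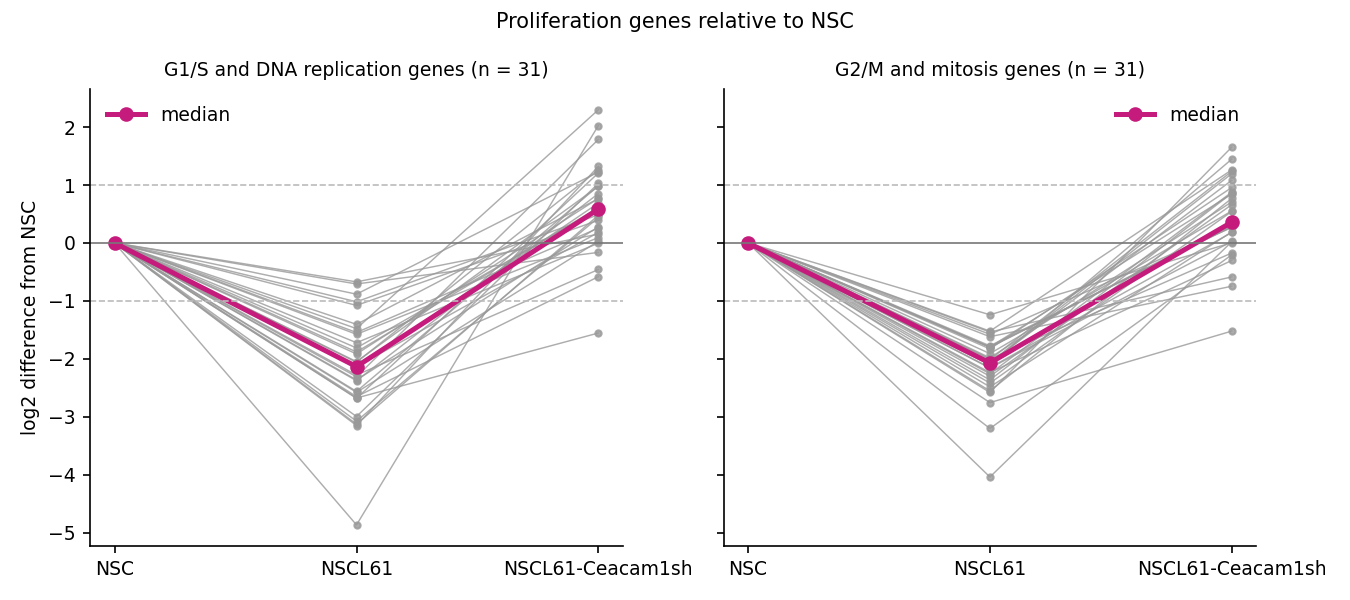
Lines join the log2 difference from NSC (y axis) of each G1/S gene (left) and each G2/M gene (right) on NSC, NSCL61 and NSCL61-Ceacam1sh, with the median in magenta and dashed lines at 2-fold. The medians fall to -2.13 and -2.07 on NSCL61 and lie at 0.58 and 0.36 on NSCL61-Ceacam1sh.

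The cell cycle inhibitors did not share 1 direction. Cdkn2a, which encodes p16 and Arf, was 6.40 on NSC, 5.85 on NSC-Ceacam1L, 6.26 on NSCL61 and 1.47 on the hairpin array, lower than NSC by 4.92 ± 0.20. Cdkn2b was 2.92, 2.70, -0.06 and -1.62, and Cdkn1c was 1.84, 2.45, 0.76 and -5.21, at least 96.4-fold below NSC. Cdkn1a, which encodes p21, was -3.72, -3.50, 0.00 and 1.02, higher by 4.74 ± 0.31. The hairpin array was thus lowest of the 4 for the first 3 inhibitors and highest for the last. These inhibitors belong to a list that also holds D-type cyclins and p53 target genes. The 23 genes of this list had a median of -0.45, with 7 lower (30.4%) and 4 higher (17.4%). Over all genes seen these shares were 21.8% and 21.6%. Ccnd2, a D-type cyclin, was low on both tumour arrays, at 1.47 on NSCL61 and 1.74 on the hairpin array against 5.49 on NSC, while Ccnd1 was 6.42 on NSC, 4.14 on NSCL61 and 5.96 on the hairpin array.

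Other genes with NSCL61 apart, named as the 8 largest gaps in each direction, included genes, some of them neuronal, that were highest on NSCL61. Tubb3, neuronal tubulin, was 1.05 on NSC, 1.30 on NSC-Ceacam1L, 5.29 on NSCL61 and 0.64 on the hairpin array. Vgf, a secreted neuropeptide precursor, was -0.72, 0.72, 6.45 and -1.66, and Lgi4 was -2.95, 1.19, 5.03 and -2.86. Lgi4 was thus also higher on NSC-Ceacam1L than on NSC. In the other direction, Pla2g7, a phospholipase that hydrolyses platelet-activating factor, was 3.95, 6.27, -4.34 and 4.24, and Gypc was 2.50, 1.92, -2.54 and 2.61. Hox genes of the HoxA cluster followed the first pattern. Hoxa3 was 1.04 and Hoxa5 was -0.19 on NSCL61, and neither was well above background on the other 3 arrays. Hoxa7 was 3.79 on NSCL61 and -1.31 on the hairpin array, at least 7.79-fold above NSC. Of 39 Hox genes, 9 were well above background on NSCL61 and 5 on the hairpin array.

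For the genes with NSC apart, the tumour-line level was kept. Slc16a3, a lactate transporter (its probe at chr11:120820030-120820089 in mm9), was 4.74 on NSC, -0.96 on NSC-Ceacam1L, -3.81 on NSCL61 and -3.26 on the hairpin array. Rprm was 2.63, 3.41, -3.23 and -2.77. Nupr1, a stress-induced nuclear protein, was -2.81, -1.71, 3.95 and 4.80, and Inf2, a formin, was -2.55, 0.91, 3.85 and 4.81. Tgfbi, a TGF-beta-induced matrix protein, was -4.13, -4.97, 0.05 and 0.03, and Sprr1a, Hspb8, Ecm1 and Tgm2 had the same pattern. On each of these genes the hairpin array lay within 2-fold of NSCL61 and more than 10-fold from NSC. NSC-Ceacam1L was itself far from NSC for Slc16a3 and Inf2.

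Calcium-binding S100 proteins, annexins and galectins led the genes that were higher on the hairpin array. S100a4 (its probe at chr3:90409908-90409967 in mm9) was -2.05 on NSC, -0.01 on NSC-Ceacam1L, 7.10 on NSCL61 and 8.55 on the hairpin array. S100a6 was -0.86, 2.16, -0.86 and 9.13, and Anxa1, annexin A1, was -4.99, -2.48, 2.52 and 7.71. S100a4 was thus already high on NSCL61, whereas S100a6 stood at the NSC level there. The differences from NSC were 10.59 ± 0.22 for S100a4, 9.99 ± 0.21 for S100a6 and at least 4032-fold for Anxa1. Of 27 genes of this list seen, 21 were higher and 3 lower, with a median of 3.21, against 0.93 for NSCL61 minus NSC. Lgals3, galectin-3 (9.37 ± 0.24), and Tm4sf1 (8.46 ± 0.21) were also higher. The astrocyte protein S100b (at least 74.5-fold), S100a16 (-2.40 ± 0.20) and Lgals7 (at least 14.5-fold) were lower, and Anxa6, Cd9 and Cd63 lay within 2-fold.

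Chemokine, cytokine and NF-kB genes were higher or within 2-fold of NSC, and none of those seen was called lower. Of 26 seen, 23 were higher, with a median of 3.81, or 3.46 with bounds. The median for NSCL61 minus NSC was 0.74, with 8 higher and 2 lower. Il1rl1, the receptor for interleukin-33, was -6.28 on NSC, -6.87 on NSC-Ceacam1L, -6.66 on NSCL61 and 7.24 on the hairpin array. Its ligand Il33 was -2.23, -1.63, -1.47 and 2.82, so both were high on the hairpin array alone, by at least 2911-fold for the receptor and 5.05 ± 0.22 for the ligand. Ptgs2, cyclooxygenase-2, was -6.31, -1.94, -5.32 and 5.81. Il6 was at least 96.5-fold higher than on NSC, Il11 at least 308-fold, Ccl7 at least 378-fold and Ccl2 by 6.26 ± 0.20. The subunits Nfkb1 (3.11 ± 0.22), Nfkb2 (2.95 ± 0.20) and Relb (2.27 ± 0.20) were higher too. Nfkbiz (0.21), Sod2 (0.32) and Cx3cl1 (0.83) lay within 2-fold. Interferon and antigen presentation genes were mixed, with 17 higher (54.8%) and 7 lower (22.6%) of 31 seen and a median of 1.28. The share that was lower was near the 21.8% of all genes seen. Ifitm3 (5.19 ± 0.21) and Isg15 (3.25 ± 0.20) were higher, and H2-K1 (-1.65 ± 0.20) and Gbp3 (-3.67 ± 0.21) were lower. Between NSC-Ceacam1L and NSC, 20 of 31 genes of this list were higher and 1 lower, with a median of 1.44. Between NSCL61 and NSC, 8 of 29 were higher and 9 lower, with a median of -0.35. A higher level than on NSC was thus not particular to the hairpin array.

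Matrix proteases and genes of the urokinase system were also higher for the most part. Mmp3, stromelysin-1 (its probe at chr9:7455751-7455810 in mm9), was -6.12 on NSC, -6.69 on NSC-Ceacam1L, -6.50 on NSCL61 and 6.08 on the hairpin array, at least 1300-fold above NSC. Plaur, the urokinase receptor, was -2.70, -3.57, -2.85 and 5.02, a difference of 7.72 ± 0.24. Mmp10 was at least 99.7-fold and Mmp13, a collagenase, at least 14.7-fold higher, and neither was well above background on the other 3 arrays. Of the 6 list genes with the AP-1 letters shown above, the other 2 are Serpinb2, at least 6.17-fold higher, and Mmp12, not well above background on either array but at -0.94 on NSCL61. Of 23 genes of the list seen, 14 were higher (60.9%) and 6 lower (26.1%), with a median of 3.11, or 2.16 with bounds. Over all genes seen these shares were 21.6% and 21.8%. Between NSCL61 and NSC, 11 of 20 were already higher and 4 lower, with a median of 1.14, or 0.45 with bounds. Timp1 (5.87 ± 0.20) and Timp2 (3.73 ± 0.20) were higher. Timp4 (at least 515-fold), Mmp15 (at least 235-fold) and Serpine2 (-4.92 ± 0.21) were lower.

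Across all genes seen, the AP-1 letters were counted over a longer window. In the 250 bases upstream, TGANTCA was present for 7.97% of the higher genes with a promoter entry, 6.16% of the lower ones and 5.05% of those within 2-fold. The share was 7.48% for genes higher on the hairpin array than on both NSC and NSCL61, and 10.3% for genes higher on NSCL61 alone of these 3 arrays. Among AP-1 factors, Fosl1 was -6.32 on NSC, -4.61 on NSC-Ceacam1L, -1.77 on NSCL61 and 3.47 on the hairpin array, at least 214-fold above NSC. Fosl2 was 3.24 ± 0.21 and Maff 3.51 ± 0.21 higher, whereas Fos (-3.14 ± 0.20), Fosb (-1.24 ± 0.20) and Jund (-1.12 ± 0.20) were lower and Jun (-0.37 ± 0.20) lay within 2-fold. Of 16 seen in that list, 8 were higher (50%) and 5 lower (31%), with a median of 0.78. Over all genes seen these shares were 21.6% and 21.8%.

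Ras and ERK output genes split in the same comparison. Of 30 seen, 13 were higher (43.3%) and 7 lower (23.3%), against 21.6% and 21.8% of all genes seen. The share that was lower was thus near that of all genes. The median was 0.21, against -0.68 for NSCL61 minus NSC. The receptor Epha2 was -2.79 on NSC, -2.88 on NSC-Ceacam1L, -2.45 on NSCL61 and 5.47 on the hairpin array. The growth factor Ereg was -6.28, -6.87, -6.64 and 4.37, at least 399-fold above NSC, and Areg (4.32 ± 0.21), Hbegf (2.76 ± 0.20) and the phosphatase Dusp4 (5.30 ± 0.21) were higher. All 5 of these genes were highest on the hairpin array. The feedback inhibitors Spry1 (-3.74 ± 0.20) and Spry2 (-1.58 ± 0.21) and the factors Etv1 (-1.59 ± 0.20) and Etv5 (-1.33 ± 0.20) were lower and lay within 2-fold of NSCL61. Dusp6 was 5.24 on NSC, 2.32 on NSCL61 and 4.25 on the hairpin array. Hras itself was 3.46, 3.15 and 4.83 on those 3 arrays.

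Transcription factors of mesenchyme had a median of 5.01 over 22 genes seen, or 4.07 with bounds and 2.86 with normexp background correction, with 17 higher and 1, Zeb1 (-1.40 ± 0.20), lower. Between NSCL61 and NSC, 14 of 23 were already higher and 3 lower, with a median of 2.14, or 0.91 with bounds. Twist2 was -6.57 on NSC, -7.14 on NSC-Ceacam1L, 0.61 on NSCL61 and 4.64 on the hairpin array, at least 480-fold above NSC. Hmga2, a chromatin protein of embryonic and tumour cells, was -0.74, -1.94, -1.93 and 5.32, and Snai2 was -3.88, -7.0, -6.79 and 2.82. Twist2 was already above background on NSCL61, and the other 2 were high on the hairpin array alone. Scx, a tendon factor, was higher by 7.96 ± 0.35, Twist1 at least 47.3-fold, Tbx15 at least 41.4-fold and Runx1 by 5.10 ± 0.26. Grem1, a secreted BMP antagonist kept in this list, was at least 424-fold higher. Foxc1, Zeb2, Alx4 and Prrx2 lay within 2-fold. Tcf21, Wt1, Hand1, Hand2 and Tbx5 were not well above background on any array.

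Fibroblast markers were higher for 20 of 28 seen (71.4%) and lower for 7 (25%), against 21.6% and 21.8% of all genes seen. Their median was 3.79, or 3.17 with bounds. Between NSCL61 and NSC, 11 of 22 were higher and 6 lower, with a median of 1.18, or 0.33 with bounds. Col1a1, a fibrillar collagen chain, was -2.66 on NSC, -3.37 on NSC-Ceacam1L, -4.51 on NSCL61 and -0.04 on the hairpin array. Cd34 was -4.27, -2.82, -6.49 and 6.06, at least 1285-fold above NSC, Fn1, fibronectin, was 1.76, 2.15, 5.08 and 6.10, and Dcn, decorin, was at least 191-fold higher. Col1a1 thus reached only the level of the 75th percentile, and Postn, Lum and Dpt, further defining markers, were not well above background on any array. Thy1 (at least 53.7-fold), Col5a2 (at least 15.9-fold) and Tagln (-1.35 ± 0.20) were lower. The summed level of the 32 listed markers, in units of the 75th percentile, was 274 on NSC, 398 on NSC-Ceacam1L, 927 on NSCL61 and 1246 on the hairpin array.

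Some markers of other cell types were higher while many of their defining markers stayed at background. Of 12 mesothelial markers seen of 24, 8 were higher and 3 lower. The list's summed level was 38.7 on NSC, 62.2 on NSCL61 and 213 on the hairpin array. Between NSCL61 and NSC, 6 of 11 were higher and 2 lower, with a median of 1.02. Msln, mesothelin, was -6.42 on NSC, -5.01 on NSC-Ceacam1L, -1.93 on NSCL61 and 6.39 on the hairpin array, at least 1612-fold above NSC, and Slpi was at least 603-fold higher. The defining mesothelial markers Upk3b, Upk1b, Wt1, Krt7 and Calb2 were not well above background on any array. Of 9 epithelial markers seen, none was higher or lower, and Cdh1, E-cadherin, and Epcam were not well above background on NSC or NSCL61-Ceacam1sh. Of 7 endothelial markers seen, 4 were higher and 1 lower, but Pecam1 was -3.57 and -3.20 on NSC and the hairpin array, and Tie1, Emcn and Sox18 were not well above background on any array. Of 7 myeloid markers seen, 2 were higher (28.6%, against 21.6% of all genes seen), among them Cd14 (4.17 ± 0.22). Ptprc, Tyrobp, C1qa and Aif1 were not well above background on any array. The muscle factors Myod1, Myf5 and Myog and the pluripotency factor Pou5f1 were likewise at background on every array. Pax3, a factor of neural crest and muscle precursors, was -4.45 on NSC, -4.24 on NSC-Ceacam1L, -3.97 on NSCL61 and 3.72 on the hairpin array, and Tnnt2, cardiac troponin T, was at least 275-fold higher than on NSC. Of 7 muscle markers seen, 3 were higher, Pax3 and Tnnt2 among them, and 3 lower, Actc1 and Tnni1 among them. Their median was -0.59. Of 10 neural crest markers seen, 3 were higher (30%) and 5 lower (50%), with a median of -0.90. Over all genes seen, 21.6% were higher and 21.8% lower. Summed levels on NSC and NSCL61-Ceacam1sh were 22.3 and 24.4 for epithelial, 16.7 and 23.9 for endothelial and 22.2 and 17.1 for myeloid markers. The part of admixed cells in the fibroblast and mesothelial differences was not tested.

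Genes of the BMP and TGF-beta pathways were higher for 17 of 30 seen and lower for 4, with a median of 1.65. Between NSCL61 and NSC, 12 of 27 were higher and 1 lower, with a median of 0.78. Inhba, an activin subunit, was -6.48 on NSC, -6.54 on NSC-Ceacam1L, -6.84 on NSCL61 and 4.39 on the hairpin array, at least 404-fold above NSC. The targets Thbs1 (at least 415-fold), Ccn2 (at least 65.9-fold) and Smad7 (4.19 ± 0.24), the receptor Tgfbr2 (4.02 ± 0.21) and the ligand Tgfb1 (at least 24.0-fold) were higher. Bmp7 (at least 346-fold), the receptors Bmpr1a (-1.55 ± 0.20) and Bmpr1b (-3.02 ± 0.21), and Id2 (-2.21 ± 0.20) were lower. Integrins and laminins were higher for 14 of 25 seen and lower for 4. Between NSCL61 and NSC, 9 of 23 were higher and 4 lower. Itga3 was at least 135-fold higher, and Lama1 (at least 79.6-fold) and Itgb8 (at least 32.6-fold) were lower. Lama1 was not well above background on NSCL61 either, at -6.57, against 1.56 on NSC.

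Imprinted and IGF genes were lower for 12 of 23 seen and higher for 4, with a median of -1.27, or -0.42 with bounds. Igfbp2, an IGF-binding protein, was 6.16 on NSC, 5.98 on NSC-Ceacam1L, 3.62 on NSCL61 and -3.99 on the hairpin array, a difference of -10.16 ± 0.29. Nnat was at least 913-fold, Nap1l5 at least 222-fold and Peg3 at least 68.9-fold lower, and Mest (-6.30 ± 0.21) and Ndn (-5.28 ± 0.27) were lower as well. H19 and Igf2, neighbouring imprinted genes, were 5.26 and -1.77 on NSCL61 against -4.78 and -6.52 on the hairpin array. Of metabolic genes, 7 of 24 cholesterol and fatty acid synthesis genes were lower (29.2%, against 21.8% of all genes seen) and none higher. Their median was -0.93, close to the -1.04 of NSCL61 minus NSC. Hmgcs1 was lower by 2.57 ± 0.20 and Scd2 by 2.44 ± 0.20. Of 27 hypoxia and glycolysis genes, 10 were lower (37.0%) and 3 higher (11.1%), and the median of -0.33 turned to 0.047 with median scaling. The glycolytic enzymes Ldha (-0.06 ± 0.20), Aldoa (-0.09 ± 0.20) and Eno1 (0.11 ± 0.20) lay at the NSC level. Others did not: Pfkl (-1.73) and Pfkfb3 (-1.82) were lower and Pfkp (2.24) was higher.

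The 10 genes with the largest differences on both arrays in each direction included, beyond those named, Aqp5, a water channel (10.16 ± 0.31), Fhl2 (8.40 ± 0.26) and Slco4a1 (7.92 ± 0.26) on the higher side. On the lower side were Lrrc4b (-10.31 ± 0.31), Cspg5, a brain proteoglycan (-9.52 ± 0.27), Bex2 (-9.22 ± 0.23), Adgrb1 (-9.05 ± 0.32), Kcnip3 (-8.70 ± 0.30) and Ttyh1 (-8.70 ± 0.21). Aqp5 itself was -3.66 on NSC, -2.69 on NSC-Ceacam1L, -1.37 on NSCL61 and 6.50 on the hairpin array. Of these lower genes, Adgrb1 (-0.25 against 5.08 on NSC) and Bex2 (4.0 against 6.17) were also lower on NSCL61 by more than 2-fold. Among genes above background on the hairpin array and not on NSC, Spp1, osteopontin, was at least 1285-fold, Ptgs1, cyclooxygenase-1, at least 1194-fold, Prl2c5 at least 1168-fold and Klra4 at least 808-fold higher. The last 2 belong to families of near-identical genes, so their probes cannot be assigned with certainty. Among genes above background on NSC and not on the hairpin array, Rtn1 was at least 3205-fold, Trf, transferrin, at least 1798-fold, and the astrocyte potassium channel Kcnj10 at least 1591-fold lower.

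The differences were also summarised by chromosome, as a description chosen after the values had been seen. Over 12432 genes that passed background on each of the 4 arrays, the median difference of each chromosome was taken relative to the median of all these genes. For NSC-Ceacam1L minus NSC, the 20 chromosomes lay between -0.04 and 0.05. For NSCL61 minus NSC they lay between -0.27 and 0.53, and the highest was chromosome 10, with 614 genes of which 77.9% were above the all-gene median. On the hairpin array chromosome 10 was at -0.07 relative to NSC, and 45.9% of its genes were above that median. Chromosome 3 was at 0.29 on the hairpin array and 0.00 on NSCL61. Chromosomes 8 and 14 moved alike on both tumour arrays, at 0.21 and -0.38 on the hairpin array and 0.31 and -0.24 on NSCL61. Chromosome X was at -0.27 on NSCL61 and -0.06 on the hairpin array, chromosome 6 at -0.23 and -0.0057, chromosome 19 at 0.19 and -0.015, and chromosome 15 at 0.16 and -0.021. Some of the chromosome medians of NSCL61 were thus near those of the hairpin array and others, chromosome 10 among them, were not.

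**Figure D5:**
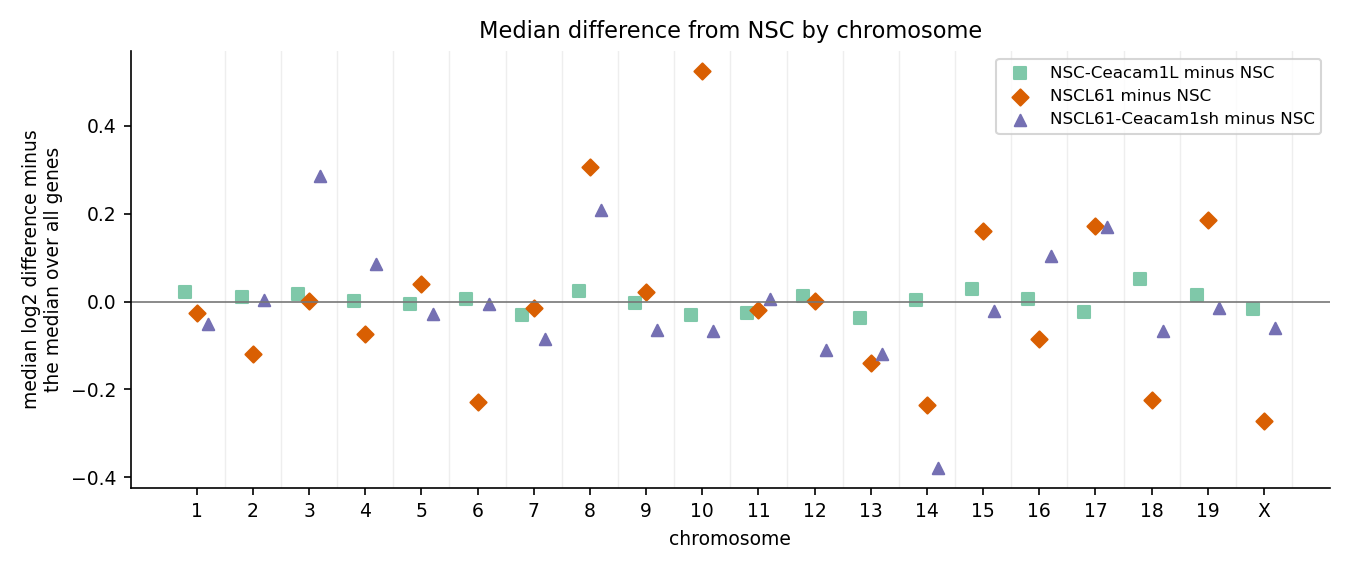
Symbols give, for each chromosome (x axis), the median log2 difference from NSC minus the median over all genes (y axis) for NSC-Ceacam1L (squares), NSCL61 (diamonds) and NSCL61-Ceacam1sh (triangles). Chromosome 10 stands at 0.53 for NSCL61 and -0.07 for NSCL61-Ceacam1sh, and chromosome 14 is low for both, at -0.24 and -0.38.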

How the data were processed

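Total RNA of 4 cell samples was labelled with Cy3 and hybridised to 1 Agilent mouse array each (design 028005, coordinates on mm9, per the file headers). The deposited intensity values are the scanner software's processed signal, from which background and spatial trend had been removed on each array separately. The authors used Agilent Feature Extraction, whose version is 10.7.3.1 per the file headers and 9.1 per the submitters' processing notes. The authors also deposited a table of log2 values whose centring is unknown, which was used as an alternative only. Each array's log2 intensity was set relative to its 75th percentile over 59305 non-control spots. Between 143 and 187 outlier spots an array were left out, none was saturated, and repeat spots were averaged per probe. A probe was well above background where at least 50% of its spots passed the scanner software's own test, which 27412 to 29550 of 55681 probes an array did. The number of arrays, 1 a group, limits the precision, and the median modelled error of a difference was 0.20.

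Probes were named through RefSeq GRCm38.p6 by accession (27235), symbol (3581) or older symbol (565), 72 kept the file's name and 24228 stayed unnamed and were not used. The NSC file held an altered gene name at 58 spots, so names were read from the NSCL61-Ceacam1sh file. Of several probes of a gene (7032 genes), the brightest by its 4-array mean was taken, and among 1133 called genes with several probes seen on both arrays, probes passed 2-fold in both directions for 36.

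The 34 gene lists and the genes compared were chosen with earlier results of these data known, so no count is independent evidence of a direction. Genes named in the text are the 10 largest differences in each direction on both arrays, the 10 largest at-least folds in each direction, up to 6 members a list in each direction, members within 2-fold in lists where most were not, the 8 largest gaps of each array that stood apart, and markers of cell types. Some results are not reported here. Alternatives were median scaling, quantile and cyclic loess normalization, normexp background correction with an offset of 50, stricter and no filters on dim probes, the mean of all probes, the deposited value table, and 4-fold and 1.5-fold thresholds. The counting steps were tested on simulated differences. Software was R 4.3.3 with limma 3.58.1 and Python 3.11.15 with numpy 2.4.6 and pandas 2.3.3.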

Additional observations from a re-analysis of the deposited data

How the results depend on the processing

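No replicate could be left out and no paired analysis was possible because each group had 1 array. The order of the stands-apart counts, the hairpin array first, NSCL61 second and NSC last, held under every alternative. Of 461 called genes named or listed, 3526 recomputed differences included 2 of reversed sign, Gpm6b (0.49) and Matn4 (0.52), both with the mean of all probes. Of 32 list medians, 254 recomputed values included 13 of reversed sign, in 11 lists. Median scaling gave 0.27 for epithelial, 0.12 for pluripotency and 0.047 for hypoxia and glycolysis genes. Quantile normalization gave 0.14 and cyclic loess 0.074 for epithelial genes, and cyclic loess gave -0.030 for housekeeping genes. Genes well above background on every array compared gave 0.72 for neural crest and -0.0059 for Ras and ERK output genes. Without a filter on dim probes, Hox genes were at -0.34, mesothelial at -0.27, endothelial at -0.17, myeloid at -0.34 and AP-1 genes at -0.020. The SD of differences was 1.29 with normexp and 1.96 without the filter, against 1.49. Normexp also brought the list medians nearer to 0 for astrocyte (-2.75), brain matrix (-3.03), fibroblast (2.34), mesenchymal (2.86) and matrix protease genes (1.66), and S100 and annexin genes, at 3.22, then had the highest median. With genes well above background on every array compared, 4349 genes were called, 2049 of them lower, 3717 had an array apart, 553 of these NSC and 891 NSCL61, and 12 lists had a median past 2-fold, against 19. At 4-fold, 3589 genes were called, 1580 higher and 2009 lower, and 3560 had an array apart, 685 NSC, 808 NSCL61 and 2067 the hairpin array. Signal over background limits the folds of genes seen on 1 array to lower bounds, and genes below background on both arrays were not compared.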
